A study of Mus musculus with 9 samples.

Results

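Lcn2, Wfdc17, Saa3, S100a8, Slpi and S100a9 encode secreted proteins of the antimicrobial and acute-phase response, and their transcripts were followed here across RAW 264.7 cells that were driven towards osteoclasts and exposed to a bacterium or to its surface proteins. They are 6 of the 23282 gene rows, taken by symbol, and all 6 symbols were found once. The 6 genes were chosen by measured values of these same libraries. Which values these were is not recorded, so the contrasts of surface proteins are treated as used and given for these 6 genes as a description, with no test, and the values with heat-killed MJ2 may have been used too. RAW 264.7 is a transformed mouse macrophage line that can form osteoclasts, and the labels give its strain as BALB/c and its passage as 30. Each group holds 3 libraries. The control, called RANKL alone, received 50 ng/mL of RANKL, the cytokine that induces osteoclasts. The group called surface proteins received RANKL with 10 μg/mL of protein extracted from the surface of Propionibacterium freudenreichii MJ2. The group called heat-killed MJ2 received killed bacteria at 1e7 cells/mL. The labels give RANKL in a protocol common to all libraries and do not say for each library that it was added with the killed bacteria. All treatments lasted 4 days. No genotype change or transgene is given for any group, all libraries come from 1 cell line, and nothing states that the replicates were separate cultures, so p-values measure the spread between these libraries.

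Lipocalin 2 binds bacterial siderophores and so withholds iron from bacteria. S100A8 and S100A9 pair as calprotectin, which binds zinc and manganese and is the most abundant cytosolic protein of neutrophils. Slpi and Wfdc17 carry the whey acidic protein (WAP) fold of small protease inhibitors, and Saa3 is the serum amyloid A that mouse macrophages make outside the liver. In macrophages such genes follow Toll-like receptor and cytokine signals through NF-κB, its cofactor IκBζ (Nfkbiz), the C/EBP factors and STAT3.

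The genes lie at 5 places in the genome. On GRCm38, which the labels name as mm10, the annotation (GENCODE M21) places Lcn2 at chr2:32384633-32388252 and Slpi at chr2:164354070-164389095, both on the minus strand. S100a8 is at chr3:90668978-90670035 on the plus strand, and S100a9 at chr3:90692632-90695721 on the minus strand, with a gap of 22.6 kb between them. Saa3 is at chr7:46711998-46715700 on the minus strand and Wfdc17 at chr11:83703991-83706268 on the plus strand. All 6 are protein coding. The 250 bases before the RefSeq start (GRCm38.p6) are shown for 4 of them, in the direction of transcription: Lcn2, the leading transcript with surface proteins (chr2:32387740-32387989, minus), S100a8, the leading transcript with heat-killed MJ2 (chr3:90668821-90669070, plus), its near silent neighbour S100a9 (chr3:90695722-90695971, minus), and Saa3, which held the most matches to a C/EBP motif (chr7:46715677-46715926, minus). Capitals mark matches to the C/EBP motif TTNNGNAA on either strand and to the TATA box TATAAA.

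Lcn2: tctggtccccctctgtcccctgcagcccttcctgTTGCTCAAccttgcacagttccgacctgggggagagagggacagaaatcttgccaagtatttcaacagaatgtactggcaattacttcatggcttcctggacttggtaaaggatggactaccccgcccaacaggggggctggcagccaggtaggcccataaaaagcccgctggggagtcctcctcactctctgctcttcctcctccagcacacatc
S100a8: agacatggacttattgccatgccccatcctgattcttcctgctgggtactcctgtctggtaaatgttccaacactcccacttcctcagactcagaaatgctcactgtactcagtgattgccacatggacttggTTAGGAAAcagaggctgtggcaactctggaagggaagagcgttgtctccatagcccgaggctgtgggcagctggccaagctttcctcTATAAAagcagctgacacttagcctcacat
S100a9: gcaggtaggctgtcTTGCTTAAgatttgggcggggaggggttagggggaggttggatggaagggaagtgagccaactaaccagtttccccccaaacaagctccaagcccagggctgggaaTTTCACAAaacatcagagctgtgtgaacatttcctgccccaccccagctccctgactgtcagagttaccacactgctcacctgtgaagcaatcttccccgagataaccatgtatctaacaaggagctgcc
Saa3: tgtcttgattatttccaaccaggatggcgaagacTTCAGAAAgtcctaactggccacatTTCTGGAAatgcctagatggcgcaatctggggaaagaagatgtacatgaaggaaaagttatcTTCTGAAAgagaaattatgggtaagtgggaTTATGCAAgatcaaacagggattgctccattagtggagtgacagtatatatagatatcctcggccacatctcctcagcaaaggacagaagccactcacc

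The C/EBP motif was found in the window of 6 of the 6 genes, with 4 matches at Saa3, 3 at Slpi, 2 each at S100a9 and Wfdc17 and 1 each at Lcn2 and S100a8. Of all 32851 RefSeq promoters of the same length, 36.8% held it. TATAAA was found at S100a8 alone among the 6, from 30 to 25 bases before the start, against 12.4% of all promoters. The STAT motif TTCNNNGAA (7.02% of all promoters) and the NF-κB motif (7.25%) had no match in the 6 windows, searched on both strands, which says only that these letters are not in these bases. No marked match overlapped another. S100a9, with 2 C/EBP matches, and S100a8, with 1, gave very different read counts, as described next.

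Reads come from the 3′ end of transcripts, so the level of a gene does not grow with its length and levels can be set beside each other between genes. Values are adjusted reads, 2 raised to the deposited log2 value minus 1, in which 1 read is worth 0.924 to 1.11. Library totals ran from 5930926 to 6503682, with a median of 6195319. In RANKL alone replicate 2, heat-killed MJ2 replicate 1 and surface proteins replicate 3, rows without a read can hold a small offset of up to 0.127 in place of 0. Markers of other cells were also measured: of 12 neutrophil markers, 11 were in the files, and Elane, Mpo, Ngp and Ltf had no read in any of the 9 libraries. The neutrophil markers summed to 11 to 15 adjusted reads with RANKL alone, 44.7 to 53.1 with heat-killed MJ2 and 32.9 to 43.3 with surface proteins. Lymphocyte markers summed to at most 0.988 in any library, although the labels give the tissue as Blood lymph. The 9 macrophage markers summed to 16731 to 18329 with RANKL alone, 25914 to 26378 with heat-killed MJ2 and 21394 to 22874 with surface proteins. The 9 osteoclast markers summed to 17104 to 28423, 12114 to 14066 and 4966 to 7354 in the same order. Single markers did not all follow their sums. From RANKL alone to surface proteins, Csf1r fell from 8809 to 9877 down to 2657 to 4161. Adgre1, also a macrophage marker, rose from 26.7 to 106 up to 712 to 1113. The osteoclast marker Mmp9 held 943 to 2099 with RANKL alone and 1757 to 2342 with heat-killed MJ2. The marker sums differ between the groups beside every result given here, and their part in the results was not tested. In bulk RNA, fewer cells of a type and less RNA per cell cannot be told apart.

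**Figure D1:**
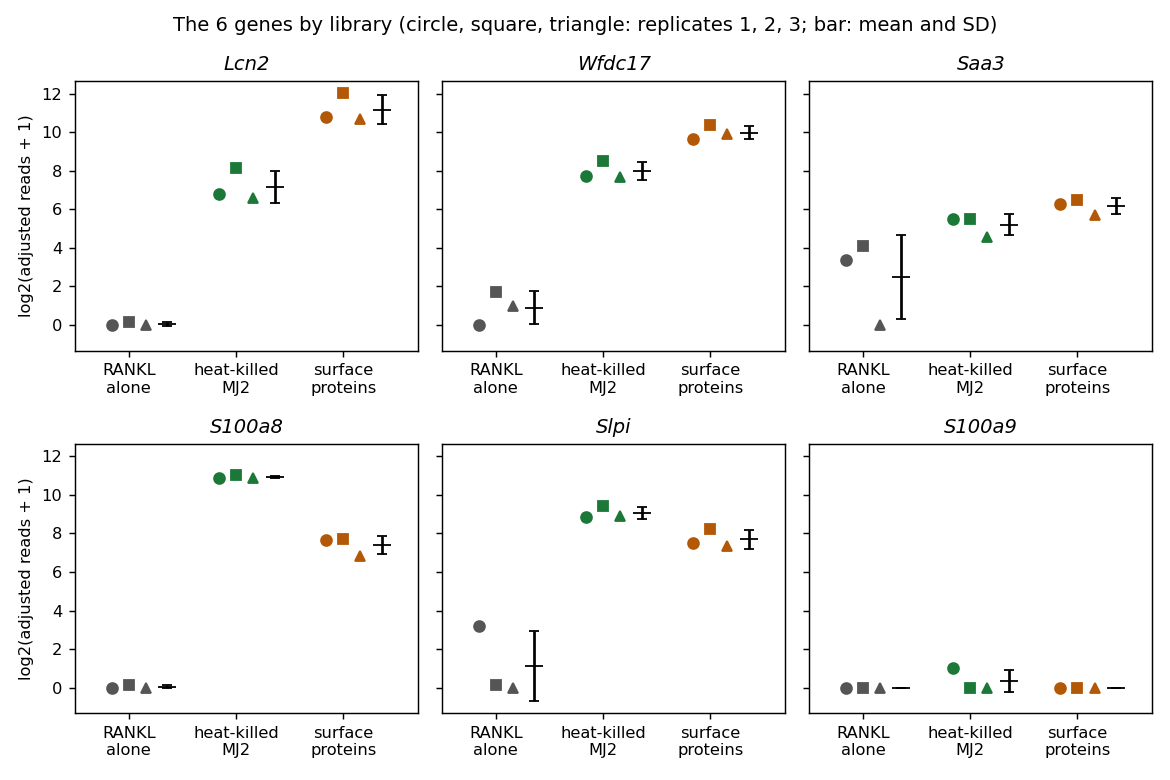
The y axis is the deposited log2(adjusted reads + 1) of each gene in each library, with 1 panel per gene, and the x axis gives the 3 groups. Circles, squares and triangles are replicates 1, 2 and 3, and the bar beside them is the mean with the SD (n = 3). Lcn2, Wfdc17 and Saa3 were highest with surface proteins, S100a8 and Slpi with heat-killed MJ2, and S100a9 stayed at or near 0 throughout.

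Lcn2 encodes lipocalin 2. In the 3 libraries of RANKL alone it held 0, 0.110 and 0 adjusted reads, where 0.110 is the offset of that library and not a read. With heat-killed MJ2 it held 109, 279 and 95.1, and with surface proteins 1743, 4129 and 1668. The 3 groups did not overlap, and replicate 2 was the highest library of both treated groups. The mean was 161 ± 102 (SD, n = 3) with heat-killed MJ2 and 2513 ± 1400 (SD, n = 3) with surface proteins, a 15.6-fold ratio of the means, and 24.7-fold without heat-killed MJ2 replicate 2. On the log2 scale the means were 7.16 ± 0.84 and 11.16 ± 0.74 (SD, n = 3), which differ by 4.00. Without any 1 of the 6 treated libraries that difference lay between 3.57 and 4.48. Against a floor of 3 reads per library, set for a count of 0, Lcn2 rose at least 838-fold over RANKL alone with surface proteins. The rise was at least 53.6-fold with heat-killed MJ2, and at least 33.9-fold without heat-killed MJ2 replicate 2. By mean level Lcn2 ranked 348 among the 13524 rows with reads in the surface protein libraries, and 5815 among 13478 with heat-killed MJ2.

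Wfdc17 is a WAP-fold gene known from activated macrophages and microglia. It had 0, 2.27 and 0.972 adjusted reads with RANKL alone, then 211, 361 and 204 with heat-killed MJ2, and 811, 1301 and 961 with surface proteins. The groups were ordered like those of Lcn2 and did not overlap. The mean was 259 ± 88.6 (SD, n = 3) with heat-killed MJ2 and 1024 ± 251 (SD, n = 3) with surface proteins, which was 3.96-fold higher, or 2.01 on the log2 scale. Since RANKL alone gave 3 reads in all, the ratios to it carry wide counting intervals (exact, 95%, counting error only): 1024 with surface proteins (350 to 4970) and 259 with heat-killed MJ2 (88.2 to 1257). Without RANKL alone replicate 2, which held most of these reads, they were 2049 (367 to 80944) and 517 (92.6 to 20460).

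Slpi, the secretory leukocyte protease inhibitor, shares the WAP fold but was ordered the other way. It had 8.34, 0.108 and 0 adjusted reads with RANKL alone, 454, 682 and 482 with heat-killed MJ2, and 180, 302 and 159 with surface proteins. Only RANKL alone replicate 1 showed reads among the controls, and the 3 groups did not overlap. The mean was 539 ± 124 (SD, n = 3) with heat-killed MJ2 and 214 ± 77.4 (SD, n = 3) with surface proteins, 2.52-fold lower than with the bacteria. Over the mean of RANKL alone, 2.82, the ratios were 192 and 76.0, and they rest on that 1 control library. The log2 difference between surface proteins and RANKL alone was 6.57, and 7.62 without RANKL alone replicate 1, and that with heat-killed MJ2 was 8.98 without it.

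S100a8, the smaller subunit of calprotectin, was the leading transcript of the 6 with heat-killed MJ2. It held 0, 0.110 and 0 adjusted reads with RANKL alone, 1899, 2056 and 1906 with heat-killed MJ2, and 198, 209 and 113 with surface proteins. The 3 libraries of heat-killed MJ2 lay within 1.08-fold of each other, a coefficient of variation of 4.52%, against 63.6% for Lcn2 in the same libraries. The mean was 1954 ± 88.4 (SD, n = 3) with heat-killed MJ2 and 173 ± 52.4 (SD, n = 3) with surface proteins, which was 11.3-fold lower, and every surface protein library lay below every heat-killed MJ2 library. Against the floor of 3 reads, S100a8 was at least 651-fold higher with heat-killed MJ2 than with RANKL alone and at least 57.8-fold higher with surface proteins. It ranked 476 among 13478 rows by mean level with heat-killed MJ2, and 5612 among 13524 with surface proteins.

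S100a9, the partner subunit, was all but absent in the same libraries. It held 1.01 adjusted reads, which is 1 read, in heat-killed MJ2 replicate 1, and no read in the other 8 libraries, where the highest value was an offset of 0.00278. The libraries of heat-killed MJ2 that gave 1899 to 2056 adjusted reads of S100a8 thus gave 1 read of S100a9 in all. All its values lay under the floor of 3 reads per library, so no fold is given. Whether reads of S100a9 fell outside the annotated 3′ end was not tested.

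Saa3, the macrophage serum amyloid A, moved least of the 5 genes with reads. It had 9.28, 16.3 and 0 adjusted reads with RANKL alone, 44.0, 44.5 and 22.5 with heat-killed MJ2, and 76.4, 88.4 and 50.4 with surface proteins. The groups did not overlap, although the lowest surface protein library, at 50.4, lay close to the highest of heat-killed MJ2, at 44.5. The mean with surface proteins, 71.7 ± 19.4 (SD, n = 3), was 1.94-fold that with heat-killed MJ2, 37.0 ± 12.5 (SD, n = 3), and 8.42-fold that with RANKL alone, 8.52 ± 8.16 (SD, n = 3). The log2 difference from RANKL alone was 3.66 and ranged from 2.41 without RANKL alone replicate 3, the control with no read, to 4.47 without RANKL alone replicate 2. Its liver-type neighbours Saa4, Saa1 and Saa2, at 12.3, 24.8 and 36.1 kb, had no read in any library, and how reads shared between these similar genes were counted is not stated.

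Between the treatments, 3 of the 6 genes were higher with surface proteins without overlap and 2 were lower without overlap. Among all 10916 rows tested, 22.2% were higher and 20.1% lower without overlap, so groups without overlap were frequent among all rows. Over RANKL alone, 5 of the 6 were higher without overlap with surface proteins, where 24.7% of 10874 rows were, and nothing is read from this because the rises are treated as part of the choice of the genes.

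Over RANKL alone, the log2 differences with heat-killed MJ2 were 10.88 ± 0.13 (SE) for S100a8, 7.93 ± 0.86 for Slpi, 7.11 ± 0.41 for Lcn2 and 7.07 ± 0.46 for Wfdc17. They are given with no p, because each of these 4 genes reached 10 adjusted reads in no library of RANKL alone. They passed the filter, 10 adjusted reads in 3 or more of the 6 libraries, only through the 3 libraries of heat-killed MJ2 and had to differ. Without any 1 library of heat-killed MJ2 they are not tested. S100a9 did not pass the filter. Saa3, with 1 control library at 10 adjusted reads or more, differed by 2.69 ± 1.04 (SE), with 3 of 3 libraries above all controls, and was not called (limma adjusted p = 0.197). Without any 1 library its difference was 1.45 or more, and its limma adjusted p ranged from 0.133 to 0.356. Since the genes may have been chosen by this comparison too, the p of Saa3 is no independent test. Calls were made by limma over all 10814 rows that passed the filter, at a Benjamini-Hochberg adjusted p under 0.05 and at least 2-fold. Of those rows 3.37% were called higher and 0.897% lower, and 15.4% were higher without overlap. These log2 differences are of log2(adjusted reads + 1), which sets the size of a rise from 0: with 0.1 or 2 in place of 1, that of Lcn2 was 10.12 or 6.15 and that of S100a8 13.90 or 9.91.

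The 6 genes together summed to 12.5 adjusted reads with RANKL alone, 2949 with heat-killed MJ2 and 3997 with surface proteins, as group means. The sums of the 2 treatments held the 5 genes with reads in different shares. With heat-killed MJ2, S100a8 was 66.2% of the sum, Slpi 18.3%, Wfdc17 8.77%, Lcn2 5.45% and Saa3 1.25%. With surface proteins, Lcn2 was 62.9%, Wfdc17 25.6%, Slpi 5.35%, S100a8 4.34% and Saa3 1.80%. In the single libraries, S100a8 took 60.1% to 70.3% with heat-killed MJ2 and 3.47% to 6.57% with surface proteins, and Lcn2 took 3.51% to 8.14% and 56.5% to 68.5%. Shares within a library do not depend on its total. In both treated groups replicate 2 was the highest library for each of the 5 genes with reads. Replicate 2 also had the largest library total of each treated group, 6228385 and 6503682, and the part of depth in this was not tested.

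**Figure D2:**
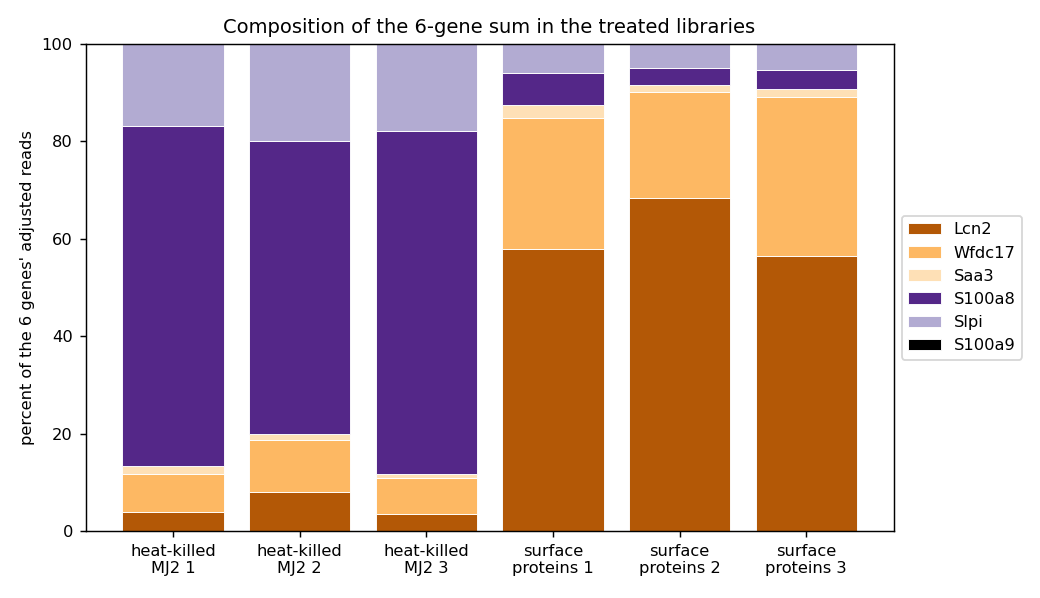
Each bar is 1 treated library, and the colours give the percent of the adjusted reads of the 6 genes that each gene took. S100a8 filled 60.1% to 70.3% of the bars of heat-killed MJ2 and Lcn2 56.5% to 68.5% of those of surface proteins, and S100a9 is too small to be seen.

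Among 18 regulators of such genes (NF-κB, C/EBP and STAT factors, their cofactors and feedback inhibitors), 7 were called higher with surface proteins against RANKL alone and 0 lower, where 10.2% of all rows tested were called higher and 7.32% lower. Socs3, the feedback inhibitor of STAT3 signalling, had 47.7, 53.0 and 37.5 adjusted reads with RANKL alone, 716, 445 and 733 with heat-killed MJ2 and 612, 826 and 816 with surface proteins. It rose by 4.00 ± 0.20 (SE; limma adjusted p = 0.000203) with surface proteins and by 3.73 ± 0.25 (SE; limma adjusted p = 0.000991) with heat-killed MJ2, and the difference between the treatments, 0.27 ± 0.25, was not called. Nfkbiz, the NF-κB cofactor known to be needed for Lcn2 transcription, had 86.1, 148 and 61.2 adjusted reads with RANKL alone, 188, 288 and 214 with heat-killed MJ2 and 801, 1170 and 984 with surface proteins. Its groups were ordered as those of Lcn2, without overlap.

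Nfkbiz rose by 3.39 ± 0.34 with surface proteins over RANKL alone (SE; limma adjusted p = 0.00168) and was 2.10 ± 0.22 higher than with heat-killed MJ2 (SE; limma adjusted p = 0.00666). Its difference of 1.29 ± 0.35 between heat-killed MJ2 and RANKL alone was not called (limma adjusted p = 0.0899), but was without RANKL alone replicate 2 (limma adjusted p = 0.0421), with all 9 libraries in one fit (limma adjusted p = 0.0464) and with a robust trended eBayes (limma adjusted p = 0.0054). Cebpd, which encodes C/EBPδ, had 181, 87.5 and 175 adjusted reads with RANKL alone, 413, 471 and 351 with heat-killed MJ2 and 1004, 1333 and 1025 with surface proteins. It rose by 2.98 ± 0.31 with surface proteins (SE; limma adjusted p = 0.00197) and was 1.44 ± 0.19 above heat-killed MJ2 (SE; limma adjusted p = 0.0099). Its rise of 1.54 ± 0.31 with heat-killed MJ2 (SE; limma adjusted p = 0.0435) was not called without RANKL alone replicates 1 or 3 or any heat-killed MJ2 replicate (limma adjusted p from 0.0631 to 0.133), with a constant of 0.1 (limma adjusted p = 0.0525) or with no filter (limma adjusted p = 0.095). The other 4 regulators called higher with surface proteins were Cebpe, Cebpb, Bcl3 and Zc3h12a, with log2 differences from 1.56 to 1.83. With heat-killed MJ2, 4 regulators were called higher (3.37% of all rows), with 1 left with a constant of 0.1, with no filter, or without RANKL alone replicate 1 or any 1 of its own replicates and 2 without RANKL alone replicate 3. Between the treatments, Nfkbiz, Cebpd and Bcl3 were called higher with surface proteins and 0 of 18 lower, against 5.08% and 4.97% of all rows. The median log2 difference of the list was 0.84, 0.58 and 0.31 for surface proteins and heat-killed MJ2 over RANKL alone and for surface proteins over heat-killed MJ2, where the medians of all rows were -0.0077, -0.0042 and 0.031.

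**Figure D3:**
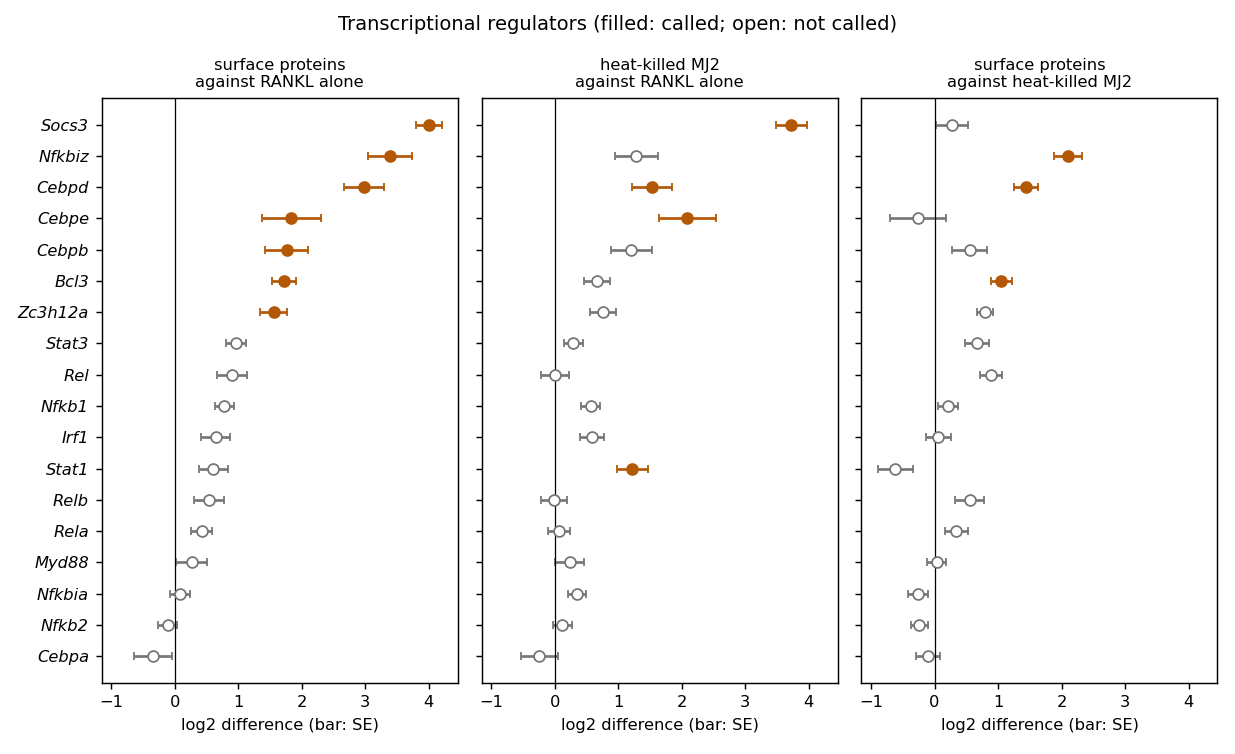
Each row is a regulator and each panel a comparison, and the x axis is the log2 difference between the group means with its SE as the bar (3 libraries per group). Filled points were called (adjusted p under 0.05 and at least 2-fold) and open points were not. Socs3 stands out over RANKL alone in both treatments, and Nfkbiz, Cebpd and Bcl3 are the 3 filled points between the treatments.

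A list of 15 genes held cytokines that act on acute-phase genes, receptors, and an antagonist, Il1rn. Of these, 9 passed the filter with surface proteins against RANKL alone. Called higher were 3, with Il1rn among them, where 10.2% of all rows were. Tnf, a main inducer, rose from 171 to 230 adjusted reads with RANKL alone to 1018 to 1260 with surface proteins and 1202 to 1322 with heat-killed MJ2. Its log2 differences were 2.45 ± 0.17 (SE; limma adjusted p = 0.000587) and 2.63 ± 0.16 (SE; limma adjusted p = 0.000673), and the treatments overlapped. Tnfrsf1b, a TNF receptor, rose by 2.31 ± 0.30 with surface proteins (SE; limma adjusted p = 0.00366) and by 2.21 ± 0.26 with heat-killed MJ2 (SE; limma adjusted p = 0.00965), the latter not called without heat-killed MJ2 replicate 1 (limma adjusted p = 0.056). Il1rn, which encodes the interleukin 1 receptor antagonist, had 334, 309 and 263 adjusted reads with RANKL alone, 2948, 2733 and 2498 with heat-killed MJ2 and 846, 632 and 511 with surface proteins. Its groups were ordered like those of S100a8 and Slpi, and its log2 difference of surface proteins from heat-killed MJ2 was -2.07 ± 0.21 (SE; limma adjusted p = 0.00666). Over RANKL alone it rose by 3.17 ± 0.15 with heat-killed MJ2 (SE; limma adjusted p = 0.000333) and by 1.11 ± 0.22 with surface proteins, where it fell under 2-fold without surface proteins replicate 1 (0.92).

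Unlike Tnf, the interleukins Il6 and Il1b were scarce. Il6, the classical inducer of the liver response, held at most 0.0592 adjusted reads with RANKL alone, 1.04, 2.87 and 6.87 with heat-killed MJ2 and 4.88, 39.7 and 6.60 with surface proteins. It did not pass the filter in any comparison, and surface proteins replicate 2 was its highest library. Il1b held 51.1, 13.5 and 84.6 adjusted reads with heat-killed MJ2 and 3.88, 15.3 and 3.42 with surface proteins. With heat-killed MJ2, 4 of the 10 tested were called higher (3.37% of all rows), and 2 without heat-killed MJ2 replicate 1. Il1b, 1 of the 4, passed the filter only through the heat-killed MJ2 libraries and so had to differ. Between the treatments, 1 of 11 was called lower (Il1rn) and 0 higher by limma, where 4.97% and 5.08% of all rows were, and 2 were called without heat-killed MJ2 replicate 2 or surface proteins replicate 3. Over RANKL alone with surface proteins, 5 were called without RANKL alone replicate 2.

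Of 23 other acute-phase genes, mostly of the liver, 13 had no read in any library. Among the 4 tested with surface proteins against RANKL alone, 3 were called higher (10.2% of all rows). Mt2, a metallothionein, held 366 to 594 adjusted reads with RANKL alone, 2679 to 3482 with heat-killed MJ2 and 5080 to 6004 with surface proteins, and rose by 3.53 ± 0.21 (SE; limma adjusted p = 0.000354) and by 2.72 ± 0.22 with heat-killed MJ2 (SE; limma adjusted p = 0.00223). Cp, the copper ferroxidase ceruloplasmin, had 54.3, 40.0 and 2.95 adjusted reads with RANKL alone, 161, 323 and 134 with heat-killed MJ2 and 604, 590 and 486 with surface proteins. C3, the central complement component, stayed low, with at most 7.62, 13.5 and 30.5 adjusted reads in the 3 groups. Cp rose by 4.75 ± 0.97 with surface proteins over RANKL alone (SE; limma adjusted p = 0.0153), a call lost without surface proteins replicate 2 (limma adjusted p = 0.0519). The difference was 3.55 without RANKL alone replicate 3, its lowest control, and 5.46 without RANKL alone replicate 1. C3 differed by 3.01 ± 0.75 (SE), or 2.12 and 3.67 without RANKL alone replicates 3 and 2, but it passed the filter only through the surface protein libraries, had to differ, and is not tested without any 1 of them. Its call was lost with no filter (limma adjusted p = 0.0707), with a constant of 0.1 (limma adjusted p = 0.0983) and without RANKL alone replicate 1 (limma adjusted p = 0.0566). Without surface proteins replicate 2, 1 gene of the list was called. Cp and C3 were called above heat-killed MJ2 too, by 1.54 ± 0.34 and 1.23 ± 0.27 (SE), 2 of 4 tested, where 5.08% of all rows were called higher. Without heat-killed MJ2 replicate 1 or 3, or without any surface protein replicate, 0 of the 4 genes of the list were called between the treatments by limma, and 0 were with no filter or with all 9 libraries in one fit. With heat-killed MJ2 over RANKL alone, Mt2 was the 1 gene called of 3, where 3.37% of all rows were called higher.

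Of 24 antimicrobial genes of macrophages and neutrophils, 11 had no read in any library and 8 were tested in each comparison. With surface proteins 7 of the 8 were called higher than with RANKL alone (10.2% of all rows), and with heat-killed MJ2 8 of 8 were (3.37% of all rows). Nos2, the inducible nitric oxide synthase, had 11.2, 21.7 and 0.972 adjusted reads with RANKL alone, 277, 468 and 261 with heat-killed MJ2 and 420, 494 and 308 with surface proteins, where the 2 treatments overlapped. Irg1 (also Acod1), which makes itaconate, had 29.9, 18.4 and 10.9 adjusted reads with RANKL alone, 2197, 2105 and 2012 with heat-killed MJ2 and 911, 895 and 962 with surface proteins. The log2 difference of surface proteins from heat-killed MJ2 was -1.19 ± 0.12 for Irg1 (SE; limma adjusted p = 0.00666), and its groups were ordered like those of S100a8. Slc11a1, an ion transporter of the phagosome, was the 1 gene called higher with surface proteins than with heat-killed MJ2, by 1.07 ± 0.16 (SE; limma adjusted p = 0.0137). Lyz1, a lysozyme, rose by 2.94 ± 0.42 with surface proteins (SE; limma adjusted p = 0.00488), but Lyz1 and Lyz2 are nearly identical and how their shared reads were counted is not stated. Nos2 rose by 5.62 ± 0.86 with surface proteins (SE; limma adjusted p = 0.00619), by 4.59 without RANKL alone replicate 3, the control with 0.972, and by 6.36 without RANKL alone replicate 2. The 8 calls with heat-killed MJ2 fell to 2 without its replicate 1 or 2 and to 3 without its replicate 3 or with no filter. Between the treatments the 2 calls (5.08% of all rows were called higher and 4.97% lower) fell to 1 with equal totals and without heat-killed MJ2 replicate 3 or surface proteins replicate 2.

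Relatives of the 6 genes were tested in turn. Of 13 other S100 genes 7 were tested, and with surface proteins 0 were called higher and 3 lower than with RANKL alone, where 10.2% and 7.32% of all rows were. S100a4, the most abundant S100 transcript, had 56893, 53010 and 56110 adjusted reads with RANKL alone, 30935, 26912 and 31695 with heat-killed MJ2 and 15748, 7377 and 12685 with surface proteins. It fell by 2.28 ± 0.29 on the log2 scale with surface proteins (SE; limma adjusted p = 0.00328). S100a3 fell by 2.51 ± 0.44 (SE; limma adjusted p = 0.00909) and S100a10, a partner of annexin A2, by 1.28 ± 0.15 (SE; limma adjusted p = 0.00282). Against heat-killed MJ2, S100a4 and S100a10 were called lower, and 0 of the 7 were without heat-killed MJ2 replicate 1 or 3, and 1 without surface proteins replicate 2 or 3 or with no filter, where 4.97% of all rows were called lower. With heat-killed MJ2 over RANKL alone, 0 of the 7 were called by limma, where 3.37% of all rows were called higher and 0.897% lower, and 4 of the 7 had an unadjusted p under 0.05. S100a3 was called there, with a log2 difference of -1.22, when 10 adjusted reads were required in all 6 libraries (limma adjusted p = 0.0473). S100a6, 44.8 kb from S100a8, was among the 4 tested genes not called with surface proteins. S100a7a, which lies 10.3 kb from S100a8, gave at most 2.03 adjusted reads in any library, and S100a4, 62.9 kb away, gave the highest.

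**Figure D4:**
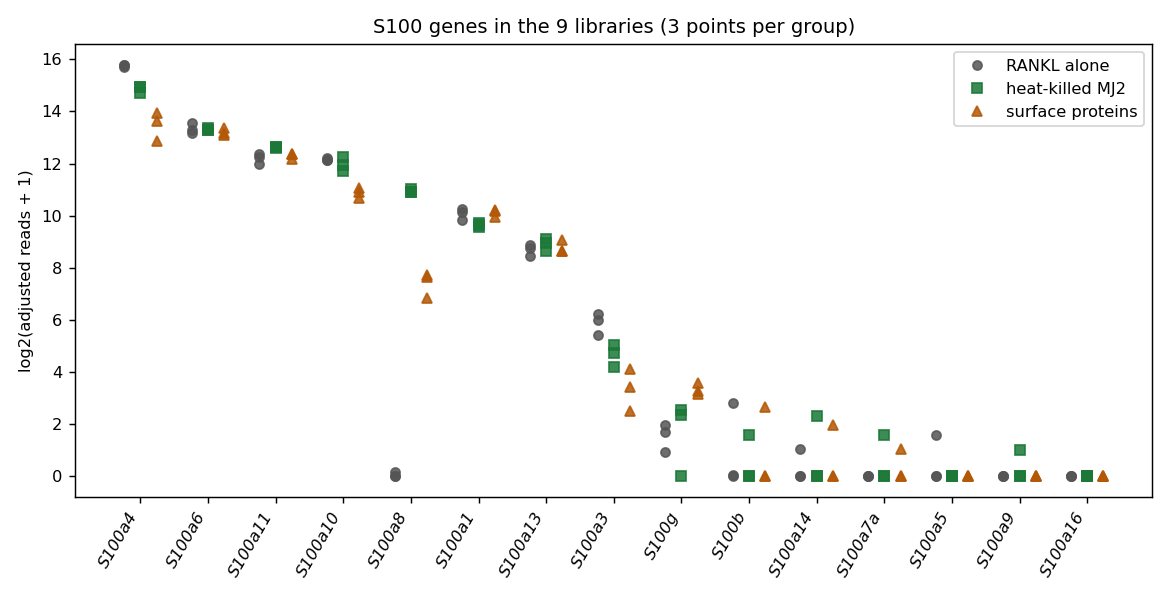
The x axis lists the S100 genes from the highest to the lowest peak level, and the y axis is log2(adjusted reads + 1) with 3 points per group, 1 for each library. S100a8 is at or near 0 with RANKL alone and highest with heat-killed MJ2, S100a9 lies at the bottom in all groups, and S100a4 falls from left to right within its triplet.

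Of 17 other WAP-fold genes 12 had no read, and the 1 tested, Wfikkn1, was not called in any comparison. Wfdc18, 2.75 kb from Wfdc17, reached 16.7 adjusted reads in its highest library and Wfdc21, 40.7 kb away, 6.79, while Wfdc17 reached 1301. Of 13 other lipocalins in the files 7 had no read. Ptgds, the lipocalin-type prostaglandin D synthase, had 83.0, 76.0 and 22.7 adjusted reads with RANKL alone, 3.10, 0.925 and 0 with heat-killed MJ2 and at most 0.106, an offset, with surface proteins. Its log2 difference from RANKL alone was -5.69 ± 0.49 (SE) with surface proteins and -4.75 ± 0.67 with heat-killed MJ2, opposite to Lcn2. Ptgds was the 1 lipocalin called of 2 tested with surface proteins and of 3 with heat-killed MJ2, where 7.32% and 0.897% of all rows were called lower, but it passed the filter only through the 3 RANKL alone libraries and had to differ, and it is not tested without any 1 of them. With heat-killed MJ2 its call was lost with a constant of 0.1 (limma adjusted p = 0.0542), with no filter (limma adjusted p = 0.0556) and without heat-killed MJ2 replicate 2 (limma adjusted p = 0.065) or 3 (limma adjusted p = 0.0576). Without surface proteins replicate 1, Apod was also called lower with surface proteins, against either group, and without RANKL alone replicate 3, Ambp was called higher with heat-killed MJ2. In these fits Apod and Ambp too passed the filter only through the group where they were higher, and had to differ.

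Of 17 receptors and partners through which these proteins are known to act, 14 were tested and 5 called higher in each treatment over RANKL alone, where 10.2% of all rows were called higher with surface proteins and 3.37% with heat-killed MJ2. Fpr2 and Plscr4 are among the 5, passed the filter only through the treated libraries and so had to differ. Fpr2, the formyl peptide receptor that also binds serum amyloid A, had 0, 1.19 and 0 adjusted reads with RANKL alone, 76.7, 47.4 and 55.9 with heat-killed MJ2 and 218, 109 and 115 with surface proteins. The log2 differences from RANKL alone were 6.76 ± 0.41 (SE) with surface proteins and 5.53 ± 0.36 with heat-killed MJ2. Its difference between the treatments was 1.23 ± 0.32 (SE; limma adjusted p = 0.0471), the 1 called of 15 tested, where 5.08% of all rows were called higher. That difference was not called without any 1 of the 6 libraries (limma adjusted p from 0.061 to 0.124), nor with equal totals (limma adjusted p = 0.0618), a constant of 0.1 (limma adjusted p = 0.0518) or no filter (limma adjusted p = 0.0952). Cd36, a scavenger receptor, held 107 to 185 adjusted reads with RANKL alone, 838 to 1027 with heat-killed MJ2 and 1406 to 1987 with surface proteins, and was called in both. Plscr4, a phospholipid scramblase of the family to which Slpi is known to bind, went from at most 0.858 adjusted reads with RANKL alone to 10.3 to 37.3 adjusted reads with heat-killed MJ2 and 23.0 to 29.8 with surface proteins. Slc22a17, the proposed lipocalin 2 receptor, held 37.8 to 59.3 adjusted reads with RANKL alone, 17.4 to 56.9 with heat-killed MJ2 and 43.9 to 69.5 with surface proteins, and was not called. Lrp2, another receptor of lipocalin 2, held at most 4.93 and Mc4r held no read in any library. Fitted rises from near 0 depend on the constant before the log. The 5 calls fell to 3 without any 1 surface protein library, as Fpr2 and Plscr4 then had too few libraries with reads to be tested, and with heat-killed MJ2 to 1 without its replicate 1 and 2 without its replicate 2 or 3.

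Likeness among the 5 genes with reads across the 9 libraries is given as a description because the libraries share groups and genes were chosen for these levels. Pearson r of the log2 values was 0.983 between Lcn2 and Wfdc17 and 0.955 between S100a8 and Slpi, while Lcn2 and S100a8 gave 0.770. Wfdc17 gave 0.877 with Slpi and 0.854 with S100a8. Saa3 gave 0.826 or less with each of the others, and its 0.693 with S100a8 was the lowest of all. Among 11181 other rows, those most like Lcn2 were Ms4a6d (0.996), C3ar1 (0.994), the receptor of complement C3a, and Ppt1 (0.994), a lysosomal thioesterase. C3ar1 held 87.1 to 144 adjusted reads with RANKL alone, 768 to 1117 with heat-killed MJ2 and 2760 to 3810 with surface proteins. Most like Wfdc17 were Cd36 (0.996), Itgam (0.994), the CD11b integrin chain, and Usp18 (0.992), which removes ISG15.

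Most like S100a8 were Csf3 (0.989), which encodes the granulocyte growth factor G-CSF, Upp1 (0.988), a uridine phosphorylase, and Prdx1 (0.988), a peroxiredoxin. Csf3 held 1.78, 0.106 and 0 adjusted reads with RANKL alone, 343, 344 and 275 with heat-killed MJ2 and 81.2, 101 and 62.7 with surface proteins. Csf3 was also among the 3 most like Slpi (0.987), with Tmem171 (0.990) and Irg1 (0.984). Most like Saa3 were Treml4 (0.983), C3 (0.976) and Tmco1 (0.974), and its values rest on few reads. Each r is over 9 libraries in 3 groups, so it mainly reflects the order and spacing of the 3 group means.

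**Figure D5:**
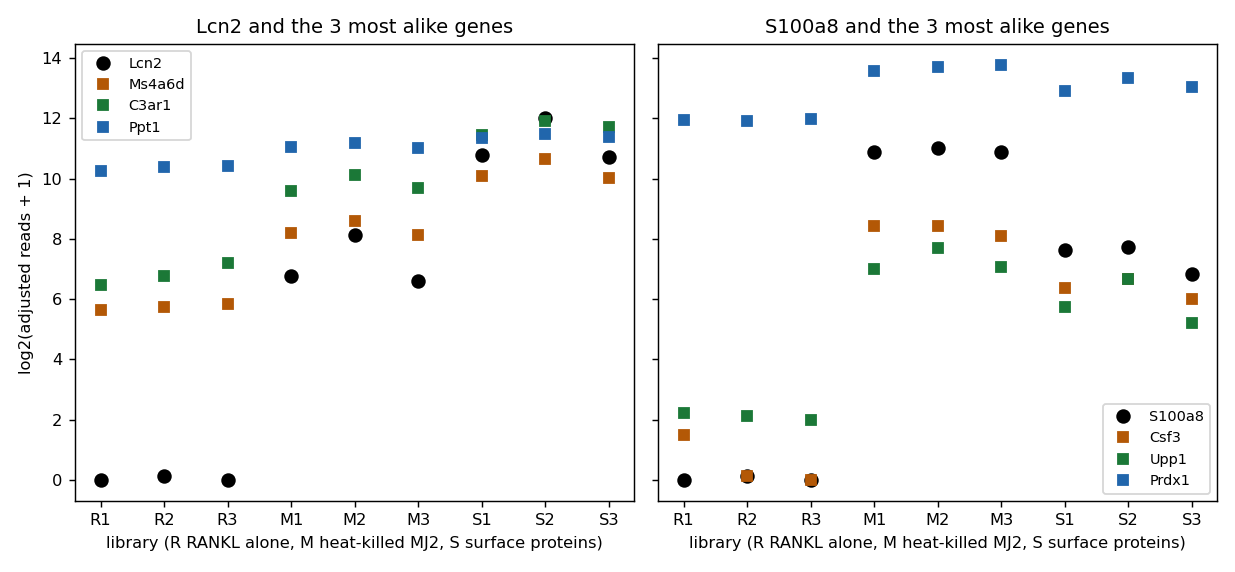
The y axis is log2(adjusted reads + 1) in each of the 9 libraries on the x axis, for Lcn2 (left) and S100a8 (right, black circles) with the 3 genes of highest Pearson r (coloured squares). The genes like Lcn2 were highest with surface proteins, and those like S100a8 with heat-killed MJ2.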

How the data were processed

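RNA of RAW 264.7 cells was made into QuantSeq 3′ libraries by the authors and sequenced as single-end reads. The deposited values are log2(value + 1) per gene symbol, to 3 decimals. The submitters' processing notes name Bowtie2, bedtools and mm10 without versions, and the study's methods name quantile normalization. The sorted values of the libraries are not identical (largest difference 1.60 in log2), as they would be after a full quantile normalization. The annotation and the counting of shared reads are not given in the sources used here. Below 3.5 adjusted reads, 100% of values lay within 0.25 of a whole number of reads.

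The 6 genes, the gene lists and the tests were chosen with earlier results of these data known. Groups came from the sample titles. Each comparison was fitted on its own 6 libraries with limma 3.58.1 (R 4.3.3; lmFit, eBayes) on the log2 values, over rows that reached 10 adjusted reads in 3 or more libraries, with Benjamini-Hochberg adjustment over all rows, and called at adjusted p under 0.05 and at least 2-fold. Per list, the 3 genes with the largest difference called in each direction with surface proteins over RANKL alone were named, and other genes were named after their values were seen. Of 2 list symbols, Lcn1 and Ly6g, no row was found, and Acod1 was matched as Irg1. Likeness was Pearson r over rows that reached 10 adjusted reads in 3 or more of 9 libraries. Promoters come from RefSeq. Tested on simulated data for heat-killed MJ2 against RANKL alone, limma called 200 of 200 rows changed 4-fold and 3 unchanged rows among 10860. The simulation gave all rows the same spread, held no batch and changed only rows well above the floor. It checks the fit and cannot show how reliable the calls in these libraries are. Alternatives were scaling, the constant before the log, the filter, all 9 libraries in one fit, the replicate block, a robust trended eBayes and leaving out each library. Python 3.11.15 was used for the rest. Intervals and floors cover counting error only.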

Additional observations from a re-analysis of the deposited data

How the results depend on the processing

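The depth limits S100a9 and the controls of Lcn2, S100a8 and Il6, which lie at or under 3 reads per library. Over all rows, 1901 were called with surface proteins against RANKL alone, and 1357 to 1822 without any 1 library. With heat-killed MJ2 against RANKL alone 461 were called, 267 with no filter on low values, 289 with the replicate block, and 81 to 347 without any 1 library: 81, 155 and 116 without heat-killed MJ2 replicates 1, 2 and 3, and 300 without RANKL alone replicate 3. Between the treatments 1098 were called, and 362 to 1176 without any 1 library: 362 and 415 without heat-killed MJ2 replicates 1 and 3, 591 and 672 without surface proteins replicates 2 and 3. The cause was not tested. Fewer libraries in a fit leave fewer degrees of freedom.

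The replicate block gave 1813, 289 and 980 calls in the same order. Deviations from the group means correlated at 0.018 to 0.106 between libraries of the same number and at -0.076 to 0.031 between others. Of 18 cases, 18 correlated best with their own number. The labels do not say what a shared number means, so the main fits left it out. Whether libraries of the same number were handled together was not tested. Among the 6 genes and the list genes named by rule, no called difference changed sign under the alternatives run, while that of Tnfrsf1b between the treatments, 0.10 and not called, was -0.10 without surface proteins replicate 2 and -0.04 without heat-killed MJ2 replicate 3. Between the treatments 555 rows were called higher and 543 lower, 453 and 645 with equal totals, and 236 and 355 without surface proteins replicate 2. With the block, the calls of Cebpd, Lyz1 and Plscr4 with heat-killed MJ2 over RANKL alone (limma adjusted p = 0.11, 0.0618 and 0.0551) and of C3 between the treatments (limma adjusted p = 0.0721) were not made, S100a3 was called between the treatments (limma adjusted p = 0.0373), and 5 of the 8 antimicrobial genes called with heat-killed MJ2 were left. For the 6 genes, the constant before the log moved differences from RANKL alone. With constants of 0.1 and 2, those with surface proteins were 14.13 and 10.14 for Lcn2 and 10.35 and 6.38 for S100a8, and with 0.1 they were 8.52 for Slpi and 10.63 for Wfdc17. Those with heat-killed MJ2 ranged over all alternatives from 6.15 to 10.12 for Lcn2, 9.91 to 13.90 for S100a8, 7.24 to 9.89 for Slpi and 6.42 to 8.62 for Wfdc17. Counting each gene of the lists that is tracked here in each comparison under each alternative, 723 values kept their side of the threshold, 62 lost and 5 gained a call. Of the calls per list counted the same way, 285 stayed within 1.5 times and 75 did not.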
